A study of Mus musculus with 12 samples.

Results

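The 10 genes described here, Runx1, Cbfb, Gata2, Lyl1, Myb, Meis1, Hhex, Kit, Cd34 and Cd24a, encode regulators and surface proteins of blood stem and progenitor cells. They were chosen by name among the array's probes for transcripts, under the current or an older symbol, and they make up 10 of the 27573 gene names on the array. In all, 18 of 41174 probes belonged to them, and each of the 10 genes had at least 1 probe bright enough to be tested. In the yolk sac, blood arises in waves: primitive erythroid cells come first, and progenitors of definitive blood then bud from haemogenic endothelium. Runx1 with its partner Cbfb is needed for that budding, Gata2 and Lyl1 act with Tal1 and Lmo2 in early progenitors, and Myb is needed for definitive but not for primitive blood. Kit and Cd34 are surface proteins by which progenitors are recognised.

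Messenger RNA was compared on 12 Agilent arrays with 2 colours that held yolk sac RNA in Cy5 and a common RNA in Cy3. The 4 groups were yolk sacs homozygous for the V1068G point mutation of Arid1a (also called Baf250a, part of the SWI/SNF remodelling complex) at embryonic day 8.5 (E8.5), wild-type yolk sacs at E8.5, homozygous mutant yolk sacs at E9.5 and wild-type yolk sacs at E9.5, with 3 biological replicates each. All yolk sacs were of CD1 background. The reference RNA came from whole wild-type newborn mice of mixed 129Sv and C57BL/6 background, and dyes were not swapped. Whether a replicate was 1 yolk sac or a pool is not stated, and a point mutation leaves no check on the Arid1a transcript itself. All values below are log2 ratios of Cy5 over Cy3. They were normalized within each array, so a level of 0 is the trend of probes of like brightness and not an equal transcript level. An added offset of 50 units also draws dim probes toward 0. Differences are log2 differences between groups with the standard error of the fit. In whole tissue, fewer cells of a type and less RNA per cell cannot be told apart.

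Between 47.4% and 50.7% of probes were well above background in Cy5 on each array. The 4 groups shared each of the 3 slides, with a set position per group, and array position and group therefore cannot be told apart. Slides were taken from the grid name in the scanner headers, because the barcode given for slide 3 repeats that of slide 2. Some arrays stood apart in transcripts of neighbouring tissue. The 6 measured trophoblast markers (of 14 listed) averaged 1.21 in mutant E8.5 replicate 3, 0.99 in mutant E9.5 replicate 3 and 0.97 in wild-type E9.5 replicate 3 after centring each gene over the 12 arrays, against -0.46 to -0.23 on the other arrays. The 6 measured markers of the embryo proper (of 15) averaged 1.1 in wild-type E8.5 replicate 2, against -0.23 to 0.14 elsewhere. Results that rest on these arrays are given with and without them, or slide by slide. All 20 erythroid markers and 18 of 20 visceral endoderm markers, which define this tissue, were measured.

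The genes differed widely in signal. Cd34, Cd24a, Cbfb and Lyl1 had Cy5 signals of 184 to 1348 units above local background, and Gata2 and Hhex had 37.1 to 128 units. The probes used for Runx1, Kit, Myb and Meis1 were near background, at 9.40 to 30.6 units, though they passed the scanner software's test on 11 (Myb) or all 12 arrays. An offset of 50 units was added before taking logs, so a change of such a dim probe is compressed. Of the other probes, 1 for Hhex and 2 for Myb were well above background in Cy5 on 0 of 12 arrays, and another for Myb on 2 of 12.

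**Figure D1:**
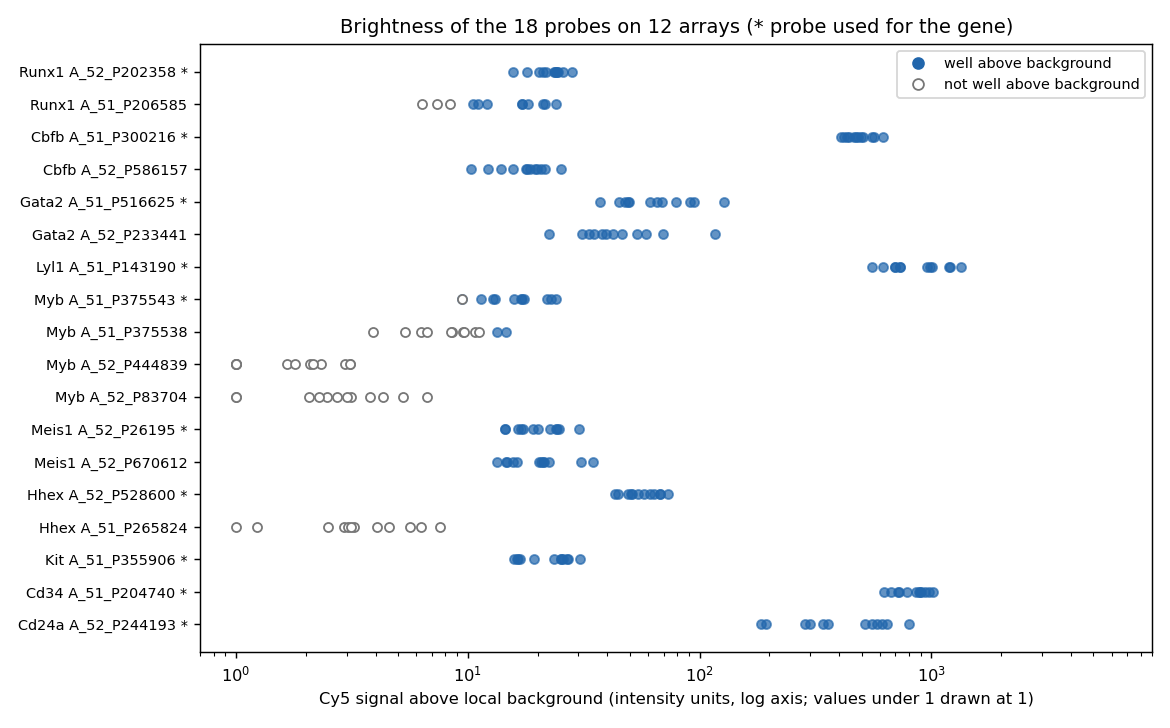
Each row is 1 of the 18 probes and each point 1 of 12 arrays, placed by its Cy5 signal above local background in intensity units on a log axis, with values under 1 drawn at 1. Filled points were well above background in at least 50% of the probe's spots, and an asterisk marks the probe used for the gene. Cbfb, Lyl1, Cd34 and Cd24a have a bright probe, while every probe of Runx1, Myb, Meis1 and Kit stays at or under 34.6 units.

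Between genotypes, none of the 10 genes passed the test at either stage. Between stages, Cd24a and Lyl1 fell in both genotypes, and Myb fell in the mutant. At E8.5 0 of 10 members passed in mutant against wild type, where 1.44% of the 13896 genes tested did (limma, Benjamini-Hochberg adjusted p under 0.05). At E9.5 it was 0 of 10, where 1.99% of all genes passed. Between stages 3 of 10 members passed in the mutant and all 3 were lower, against 21.6% of all genes passing either way and 10.6% passing as lower. In the wild type 2 of 10 passed and both were lower, against 23.8% of all genes either way and 11% lower. The shares that passed either way lie near those of the array as a whole. The median member differed by 0.04 between genotypes at E8.5 (all genes 0.00), by -0.04 at E9.5 (all genes 0.00), by -0.17 between stages in the mutant (all genes -0.01) and by -0.06 between stages in the wild type (all genes -0.01).

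**Figure D2:**
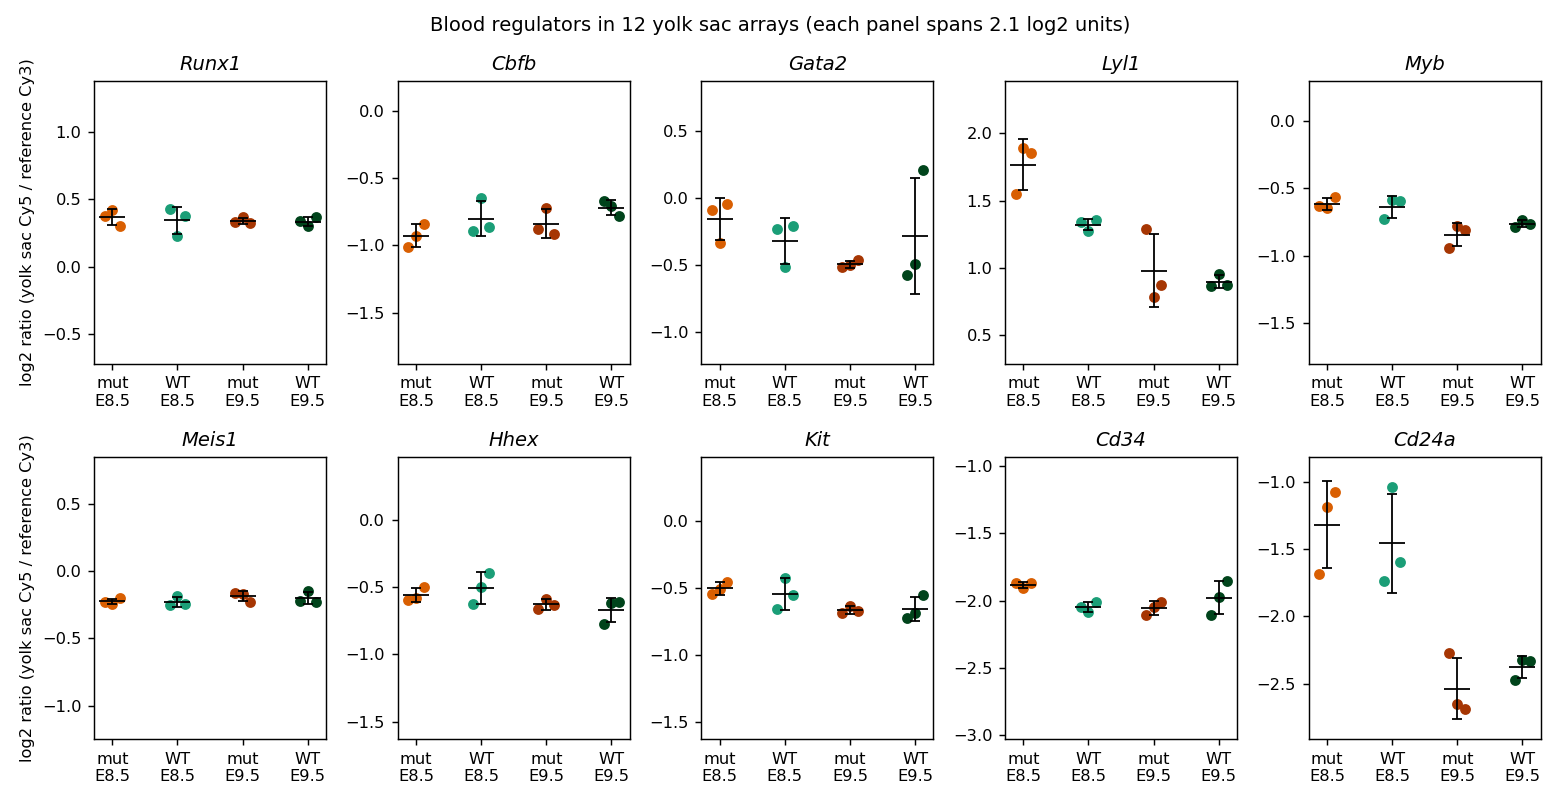
Log2 ratios (Cy5 over Cy3) of the 10 genes, 1 point per array, with the mean and SD of 3 arrays in black, for mutant and wild type, E8.5 left of E9.5. Every panel spans the same range of log2 units. Lyl1 and Cd24a are lower at E9.5 than at E8.5 in both genotypes, and 1 wild-type E9.5 array stands high for Gata2. The dim Runx1 and Meis1 are nearly flat on this offset scale, which compresses them.

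Lyl1, a basic helix-loop-helix factor related to Tal1, stood at 1.55 (replicate 1), 1.89 (replicate 2) and 1.86 (replicate 3) in the mutant at E8.5, against 1.34, 1.27 and 1.35 in the wild type at E8.5. The mutant arrays all lay above the wild-type arrays. The difference was 0.44 ± 0.11, 1.36-fold, and positive on 3 of 3 slides (0.21, 0.62 and 0.50), with an unadjusted p of 0.00138 that did not pass after adjustment (limma adjusted p = 0.0723). It passed without mutant E8.5 replicate 1 (difference 0.55, limma adjusted p = 0.0395), without mutant E9.5 replicate 1 (adjusted p = 0.0128) and with arrays weighted by quality (adjusted p = 0.0241). Without the 3 arrays high in trophoblast markers it was 0.40 (limma adjusted p = 0.327). With arrays centred on their median it was 0.34 (limma unadjusted p = 0.0952, adjusted p = 0.593). It was 0.43 on the processed signals (limma adjusted p = 0.188) and 0.45 with an offset of 16 (limma adjusted p = 0.115).

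At E9.5 Lyl1 had 1.29, 0.78 and 0.87 in the mutant, against 0.87, 0.96 and 0.87 in the wild type, and the groups overlapped. The genotype difference at E9.5 was 0.08 ± 0.11 (95% interval -0.16 to 0.32; limma adjusted p = 0.873). The genotype effect at E9.5 minus that at E8.5 was -0.36 ± 0.16, with a limma adjusted p of 0.853, so a difference between the stages did not pass. Between stages Lyl1 fell by 0.79 ± 0.11 in the mutant (limma adjusted p = 0.000240) and by 0.42 ± 0.11 in the wild type (limma adjusted p = 0.0140), with no overlap between the stages in either genotype. The change was negative on 3 of 3 slides in the mutant (-0.26, -1.11 and -0.99) and in the wild type (-0.47, -0.32 and -0.48). The call in the wild type was lost with arrays centred on their median (-0.27, limma adjusted p = 0.394) and without the 3 arrays high in trophoblast markers (-0.41, limma adjusted p = 0.0580). That in the mutant was lost with median centring alone among the alternatives run (-0.60, limma adjusted p = 0.0527). The order of the 4 group means was mutant E8.5, wild type E8.5, mutant E9.5 and wild type E9.5, of which the last pair do not differ beyond their spread.

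Within the mutant at each stage, Lyl1 was highest on arrays high in erythroid markers. The mean of the 20 erythroid markers was -0.03, 0.30 and 0.28 for the same mutant arrays in that order, against 0.00, -0.13 and -0.06 in the wild type at E8.5. It was 0.29, -0.06 and -0.22 in mutant E9.5 replicates 1, 2 and 3, against -0.12, -0.13 and -0.11 in the wild type at E9.5. The order did not carry across groups: mutant E8.5 replicate 1 had more Lyl1 than every wild-type array with an erythroid mean of -0.03, and mutant E9.5 replicate 1, at 0.29, had less Lyl1 than mutant E8.5 replicate 2, at 0.30. At E8.5 all 20 markers lay above 0 in mutant minus wild type (median 0.19, against 0.00 for all genes), but only Eraf, a chaperone of alpha-globin, passed, at 0.63 ± 0.14 (limma adjusted p = 0.0371). The part of these erythroid transcripts in the Lyl1 values was not tested. The arrays also differed in transcripts that mark sex. Xist, made from the inactive X chromosome of females, had -1.76, -4.01 and -4.17 in the mutant at E8.5, lowest on the 2 arrays with the most Lyl1, against -1.37, -0.67 and -1.03 in the wild type at E8.5. The Y-linked gene Ddx3y was at 0.15, 0.48 and 0.37 in the mutant at E8.5, against 0.06, -0.22 and -0.12 in the wild type at E8.5. At E9.5 1 array, wild-type replicate 2, had such low Xist (-4.02). The part of sex in the Lyl1 values was not tested. The 3 genes whose centred values over the 12 arrays lay closest to those of Lyl1 were Smox, Nfe2 and Epor, at root mean square differences of 0.09, 0.10 and 0.10. Nfe2 is an erythroid and megakaryocyte transcription factor, Epor the erythropoietin receptor and Smox an enzyme that oxidises spermine.

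RefSeq promoter windows matched 9 of the 10 genes, all but Cd24a. That of Lyl1 is shown because Lyl1 is the transcription factor among the 10 that fell in both genotypes. It runs from 250 bases before to 50 bases after the start on GRCm38.p6, plus strand, chr8:84701207-84701506, with 60% G and C.
Lyl1: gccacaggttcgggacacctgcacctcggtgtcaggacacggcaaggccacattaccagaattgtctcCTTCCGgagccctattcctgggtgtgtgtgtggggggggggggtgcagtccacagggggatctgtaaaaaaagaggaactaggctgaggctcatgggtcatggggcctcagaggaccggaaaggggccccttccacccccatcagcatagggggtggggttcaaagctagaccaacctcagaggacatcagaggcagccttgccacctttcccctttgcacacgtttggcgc
Capitals mark matches, on either strand, to 5 sets of letters: those of GATA factors (AGATAA or AGATAG or TGATAA or TGATAG), of RUNX factors (TGTGGT or TGCGGT), of ETS factors (AGGAAG or CGGAAG), of the E-box (CAGCTG or CATCTG or CAGATG) and of MYB (CAACTG or TAACTG). The letters CAGCTG read the same on both strands, and CATCTG is the complement of CAGATG, so each such place counts once. No match of one set overlaps that of another in the windows printed here. The Lyl1 window holds 1 match, an ETS set on the minus strand that starts 182 bases before the start. Of 32851 mouse windows of this length 46.5% hold an ETS match, and of the 9 genes with a window 7 do. GATA letters are in 29.8% of all windows and in that of 1 of the 9 genes (Cd34). A match is a description of the letters and not a bound site.

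Cd24a, the heat-stable antigen of immature blood cells and many epithelia, had the largest stage change of the 10 on the offset scale. On the processed signals of the scanner software Myb differed more in the mutant (-1.36, against -1.31 for Cd24a). In the mutant it had -2.28, -2.65 and -2.69 at E9.5, against -1.69, -1.19 and -1.08 at E8.5. The wild type had -2.47, -2.32 and -2.33 at E9.5, against -1.74, -1.04 and -1.60 at E8.5. The stages did not overlap in either genotype, and all 12 values were negative. Cd24a fell by 1.22 ± 0.17 in the mutant, which is 0.430 times its E8.5 ratio (limma adjusted p = 0.000234), and by 0.92 ± 0.17 in the wild type, 0.530 times (limma adjusted p = 0.00173). The change was negative on 3 of 3 slides in each genotype (-0.59, -1.46 and -1.61 in the mutant, -0.73, -1.28 and -0.73 in the wild type). By size of change it ranked 26 of 13896 genes in the mutant and 77 in the wild type.

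The highest wild-type value of Cd24a was in wild-type E8.5 replicate 2, the array high in markers of the embryo proper. Without it, the wild-type fall was 0.71 (limma adjusted p = 0.00464). In the mutant at E8.5 Cd24a was lowest in replicate 1, with an erythroid mean of -0.03, against 0.30 and 0.28 in replicates 2 and 3. Those 2 arrays were also low in Xist (-4.01 and -4.17). In the mutant at E9.5 it was highest in replicate 1, at an erythroid mean of 0.29, against -0.06 and -0.22. In the wild type at E8.5 the order was the reverse, with erythroid means of 0.00, -0.13 and -0.06. The part of erythroid transcripts and of sex in the Cd24a values was not tested. Between genotypes Cd24a differed by 0.14 ± 0.17 at E8.5 (95% interval -0.23 to 0.51) and by -0.16 ± 0.17 at E9.5 (95% interval -0.53 to 0.21), and neither passed. The nearest genes over the 12 arrays were Chd7, a chromatin remodeller, Zfpm1 and AU020206, at root mean square differences of 0.22 each, against 0.58 for the spread of Cd24a itself. Zfpm1 encodes the GATA1 cofactor FOG1 and is on the list of erythroid markers.

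**Figure D3:**
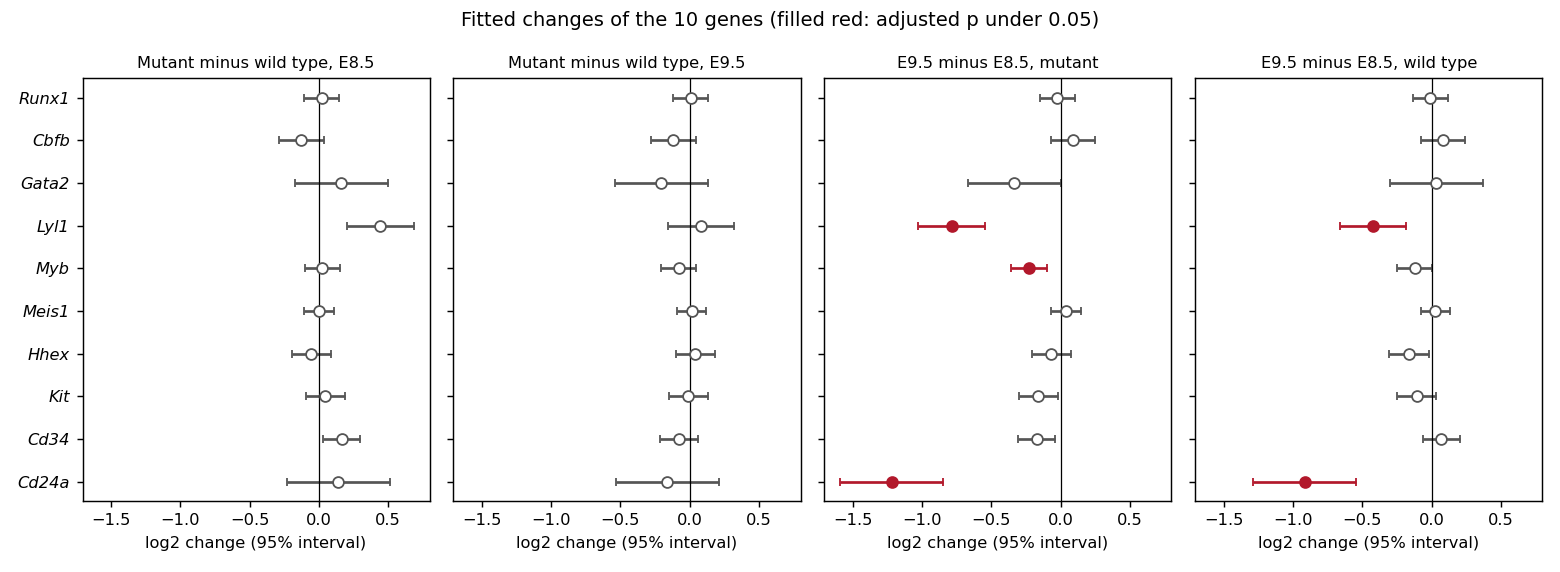
Fitted log2 change of the 10 genes with its 95% interval in 4 comparisons: genotype (mutant minus wild type, each stage) and stage (E9.5 minus E8.5, each genotype). Filled red points passed an adjusted p of 0.05: none between genotypes, 3 between stages in the mutant (Cd24a, Lyl1 and Myb) and 2 in the wild type (Cd24a and Lyl1).

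Myb, a transcription factor of definitive progenitors, was read by 1 usable probe with 10 spots per array. It had -0.94, -0.78 and -0.81 in the mutant at E9.5, against -0.63, -0.65 and -0.56 at E8.5. The wild type had -0.79, -0.73 and -0.76 at E9.5, against -0.73, -0.59 and -0.60 at E8.5. The stages did not overlap in either genotype, though in the wild type only just (-0.7321 in E9.5 replicate 2, against -0.7304 in E8.5 replicate 1). Myb fell by 0.23 ± 0.06 in the mutant (limma adjusted p = 0.0131), on 3 of 3 slides. The wild-type difference was -0.12 ± 0.06 (limma adjusted p = 0.153), and the difference between the genotypes' stage changes was -0.11 ± 0.08 (limma adjusted p = 0.950).

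The call for Myb rests on dim spots, on single arrays and on the scaling. Its Cy5 signal was 11.4, 9.48 and 9.40 units above local background in the mutant at E9.5, against 13.0, 12.8 and 17.2 units in the wild type at E9.5. At E8.5 it was 22.1, 17.5 and 24.0 units in the mutant, against 15.8, 17.0 and 22.8 units in the wild type. In mutant E9.5 replicates 2 and 3, 6 and 4 of the 10 spots were well above background, and all 10 were on every other array. The call was lost without mutant E8.5 replicate 3 (-0.20, limma adjusted p = 0.0603), without mutant E9.5 replicate 1 (-0.18, 0.0565), with arrays centred on their median (-0.11, 0.340) and without the 3 arrays high in trophoblast markers (-0.22, 0.109).

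The scanner software's own processed signals, which carry no offset, gave Myb larger changes. The processed log2 ratios were -2.61, -2.59 and -2.71 in the mutant at E9.5, against -2.16, -2.04 and -1.79 in the wild type at E9.5, so the genotypes did not overlap on that scale. Their difference was -0.64 ± 0.15, with an unadjusted p of 0.00151 that did not pass (limma adjusted p = 0.0802), against -0.08 ± 0.06 on the offset scale. The stage difference was -1.36 ± 0.15 in the mutant (limma adjusted p = 0.000337) and -0.46 ± 0.15 in the wild type (limma adjusted p = 0.0481). The difference of these stage changes was -0.90 ± 0.21 (limma adjusted p = 0.535). The genes nearest Myb on the offset scale were Coa3, Mad1l1 and Cs, at 0.03 to 0.04. Myb itself spread by only 0.11.

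The Myb window is shown for comparison with that of Lyl1. It lies at chr10:21160935-21161234 on GRCm38.p6, minus strand, with 75% G and C against a median of 52.7% over all windows.
Myb: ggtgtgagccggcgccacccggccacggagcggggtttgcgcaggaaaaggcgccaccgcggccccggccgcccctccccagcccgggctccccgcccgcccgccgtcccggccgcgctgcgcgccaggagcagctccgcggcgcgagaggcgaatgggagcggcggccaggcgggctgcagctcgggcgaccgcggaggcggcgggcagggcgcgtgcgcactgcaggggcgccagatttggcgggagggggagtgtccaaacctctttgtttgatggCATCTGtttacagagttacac
Its only match is an E-box that begins at base 29 counted from the start. E-box letters stood in 30.6% of all windows and in those of 2 of the 9 genes.

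Runx1, the factor at the centre of definitive blood formation, gave unlike results from its probes. The brighter probe had 0.38, 0.42 and 0.30 in the mutant at E8.5, against 0.43, 0.23 and 0.37 in the wild type at E8.5. It had 0.33, 0.37 and 0.32 in the mutant at E9.5, against 0.34, 0.30 and 0.37 in the wild type at E9.5. On the offset scale, which compresses this dim probe, all 4 groups overlapped. The differences between genotypes or stages lay there between -0.03 and 0.02 (95% interval for mutant minus wild type -0.10 to 0.15 at E8.5 and -0.12 to 0.13 at E9.5). The intervals were wider on the processed signals. Mutant minus wild type was then -0.18 ± 0.16 at E8.5 (95% interval -0.55 to 0.19). At E9.5 it was -0.12 ± 0.16 (95% interval -0.49 to 0.25).

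The other Runx1 probe had 0.20, 0.20 and 0.08 in the mutant at E9.5, against 0.40, 0.34 and 0.36 at E8.5. In the wild type it had 0.05, 0.12 and 0.11 at E9.5, against 0.40, 0.36 and 0.46 at E8.5. The stage difference was -0.20 in the mutant and -0.31 in the wild type, and the stages did not overlap. It is given without a test, because this probe was kept through its E8.5 arrays, where it is high. It was well above background in Cy5 on all E8.5 arrays but on 2 of 3 mutant and 1 of 3 wild-type arrays at E9.5, and in Cy3 on 4 of 12. The probes target different stretches of the gene, and no source used here states whether they read the same transcripts.

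The upstream of the Runx1 windows is shown because Runx1 has alternative promoters and its probes differed. It lies at chr16:92826025-92826324 on GRCm38.p6, minus strand, with 45% G and C.
Runx1: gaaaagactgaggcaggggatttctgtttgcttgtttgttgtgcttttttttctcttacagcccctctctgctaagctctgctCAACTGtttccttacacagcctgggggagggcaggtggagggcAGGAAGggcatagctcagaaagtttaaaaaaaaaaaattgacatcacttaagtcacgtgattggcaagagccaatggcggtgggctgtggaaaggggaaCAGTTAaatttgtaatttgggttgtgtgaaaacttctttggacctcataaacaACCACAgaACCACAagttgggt
It holds 2 RUNX matches on the minus strand, at bases 28 and 36 after the start, 1 ETS match at 124 bases before it, and MYB matches at 167 and 25 bases before it. RUNX letters stood in 22.4% of all windows and in those of 2 of the 9 genes (Runx1 and Meis1). MYB letters stood in 22.1% and in those of 1 of the 9 genes. The arrays do not read promoter use.

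Cbfb, the partner subunit of RUNX factors, was bright, and no comparison of it passed on the offset scale. It had -1.01, -0.93 and -0.84 in the mutant at E8.5, against -0.89, -0.65 and -0.86 in the wild type at E8.5, and the groups overlapped. It had -0.88, -0.72 and -0.92 in the mutant at E9.5, against -0.67, -0.71 and -0.78 in the wild type at E9.5. The mutant minus wild-type difference was -0.13 ± 0.07 at E8.5 (95% interval -0.29 to 0.03; limma adjusted p = 0.543) and -0.12 ± 0.07 at E9.5 (95% interval -0.28 to 0.04; limma adjusted p = 0.603). With arrays centred on their median the difference was -0.26 ± 0.11 at E8.5 (limma adjusted p = 0.501) and -0.21 ± 0.11 at E9.5 (limma adjusted p = 0.933). The median of all genes was then -0.09 at E8.5 and -0.06 at E9.5. The dimmer Cbfb probe differed by 0.04 and 0.02 between genotypes at E8.5 and E9.5.

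Gata2, a GATA factor of stem cells that is also made in trophoblast, depended on single arrays. It had -0.09, -0.33 and -0.05 in the mutant at E8.5, against -0.23, -0.51 and -0.21 in the wild type at E8.5. It had -0.52, -0.50 and -0.46 in the mutant at E9.5, against -0.57, -0.49 and 0.21 in wild-type E9.5 replicates 1, 2 and 3. That last array is high in trophoblast markers, with a mean of 0.97 and Prl4a1, a trophoblast hormone, at 4.31. Mutant E9.5 replicate 3 had a marker mean of 0.99 with Gata2 at -0.46, and mutant E8.5 replicate 3 had 1.21 with Gata2 at -0.05. Each of the 3 arrays high in trophoblast markers had the highest Gata2 of its group, in mutant E9.5 by a small margin. The second Gata2 probe was also highest in wild-type E9.5 replicate 3, at 0.95, against -0.04 to 0.54 on the other arrays. The part of trophoblast RNA in these values was not tested.

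Gata2 differed by -0.34 ± 0.16 between stages in the mutant (limma adjusted p = 0.150), lower on 3 of 3 slides and with no overlap, and by 0.03 ± 0.16 in the wild type. With wild-type E9.5 replicate 3 left out of the fit, the same mutant difference passed (limma adjusted p = 0.0148). Without that array the wild-type value was -0.22 (limma adjusted p = 0.144). Without it and wild-type E8.5 replicate 2 together, a choice made after seeing the data, Gata2 fell by 0.31 in the wild type (limma adjusted p = 0.0208). Between genotypes it differed by 0.16 ± 0.16 at E8.5 and by -0.21 ± 0.16 at E9.5, with limma adjusted p of 0.753 and 0.699. By slide the genotype difference was 0.14, 0.18 and 0.16 at E8.5. At E9.5 it was 0.06, -0.00488 and -0.67, the last on the slide of wild-type E9.5 replicate 3, on which the E9.5 mean rests.

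**Figure D4:**
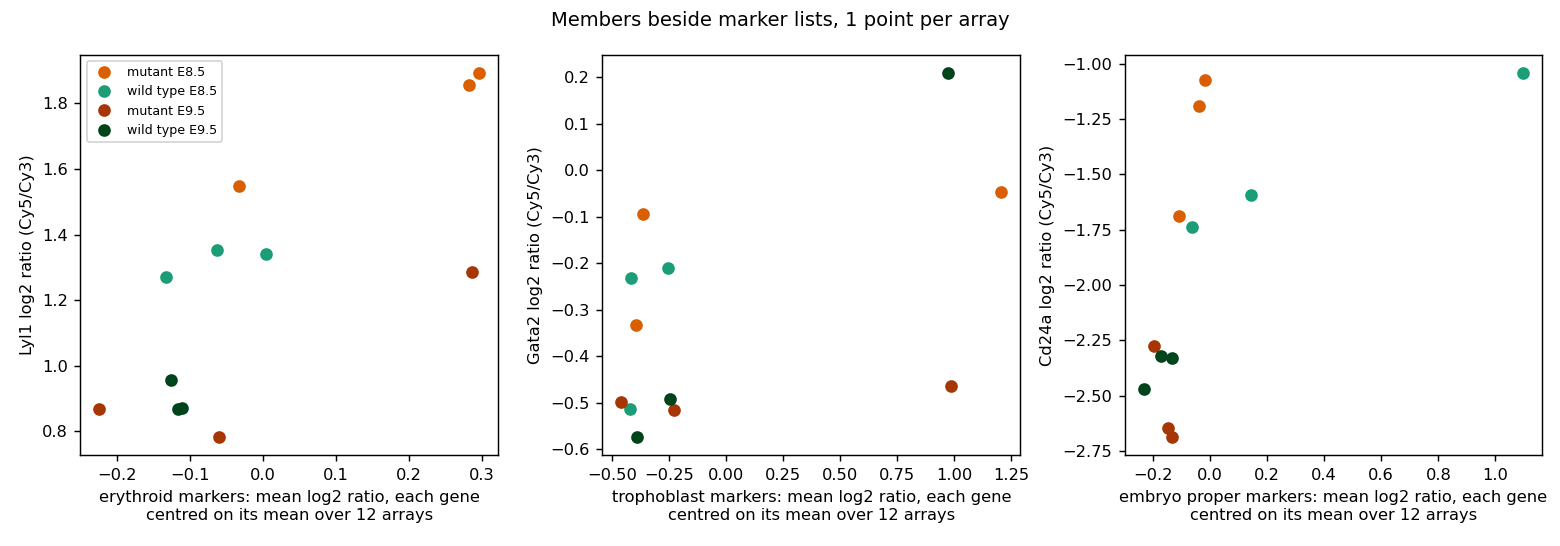
Each point is 1 array: log2 ratio of Lyl1, Gata2 and Cd24a (vertical) against the mean log2 ratio of erythroid, trophoblast and embryo proper markers, each gene centred on its mean over the 12 arrays (horizontal). The mutant arrays with the most Lyl1 at each stage have erythroid means of 0.28 to 0.30, the arrays with trophoblast means of 1.21, 0.99 and 0.97 have Gata2 at -0.05, -0.46 and 0.21, and the array with the most Cd24a has an embryo proper mean of 1.1.

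Meis1, a homeobox factor that maintains stem cells, and Hhex, a homeobox factor of early blood, vessels and endoderm, changed little on the offset scale. Meis1 lay between -0.25 and -0.15 on all 12 arrays there, and its largest group difference was 0.04 ± 0.05. On the processed signals it lay between -0.90 and -0.09. The Meis1 stage difference was then 0.19 ± 0.17 in the mutant and 0.29 ± 0.17 in the wild type (limma adjusted p = 0.465 and 0.251). Its wild-type Cy5 signal was 30.1, 24.7 and 24.0 units above local background at E9.5, against 16.5, 17.0 and 17.3 units at E8.5. In the mutant the stages overlapped in that signal. Its other probe, as dim, differed by -0.17 ± 0.10 between genotypes at E9.5 (limma adjusted p = 0.582 with each probe fitted on its own). That probe's wild-type Cy5 signal overlapped between stages, at 20.2, 34.6 and 20.8 units at E9.5, against 21.2, 30.7 and 14.8 units at E8.5. Hhex had -0.60, -0.58 and -0.50 in the mutant at E8.5, against -0.63, -0.50 and -0.39 in the wild type at E8.5, and the groups overlapped. It had -0.67, -0.59 and -0.63 in the mutant at E9.5, against -0.77, -0.62 and -0.61 in the wild type at E9.5. Between stages Hhex differed by -0.07 ± 0.07 in the mutant (limma adjusted p = 0.524) and by -0.16 ± 0.07 in the wild type (limma adjusted p = 0.0900), and the wild-type difference passed with slide as a block (limma adjusted p = 0.0361).

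Kit, the receptor for stem cell factor, was read by 1 probe with 10 spots per array, all near background. It had -0.55, -0.51 and -0.45 in the mutant at E8.5, against -0.66, -0.43 and -0.56 in the wild type at E8.5. It had -0.69, -0.63 and -0.67 in the mutant at E9.5, against -0.73, -0.68 and -0.55 in the wild type at E9.5. Genotypes overlapped at both stages, and the difference was 0.05 ± 0.07 at E8.5 (95% interval -0.10 to 0.19) and -0.01 ± 0.07 at E9.5 (95% interval -0.15 to 0.13). Between stages it differed by -0.16 ± 0.07 in the mutant (limma adjusted p = 0.0973) with no overlap, and by -0.11 ± 0.07 in the wild type. On the processed signals the mutant fall was 0.62 ± 0.19 and passed (limma adjusted p = 0.0454). Mutant minus wild type was there 0.20 ± 0.19 at E8.5 (95% interval -0.22 to 0.63). At E9.5 it was -0.02 ± 0.19 (95% interval -0.45 to 0.40), so the offset scale narrows these intervals.

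Cd34, a sialomucin of progenitors and endothelium, was read by 1 bright probe. It had -1.87, -1.91 and -1.87 in the mutant at E8.5, against -2.05, -2.09 and -2.01 in the wild type at E8.5. The genotypes did not overlap at E8.5, which held for 2 of the 10 members (Cd34 and Lyl1), against 17.9% of all genes. The difference was 0.17 ± 0.06 and higher on 3 of 3 slides, with an unadjusted p of 0.0185 and a limma adjusted p of 0.266. Unadjusted p-values under 0.05 were reached by 2 of 10 members and 12.4% of all genes at E8.5.

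At E9.5 Cd34 had -2.11, -2.05 and -2.01 in the mutant, against -2.11, -1.97 and -1.85 in the wild type, and the groups overlapped. The E9.5 difference was -0.08 ± 0.06 (limma adjusted p = 0.722). No member was without overlap at E9.5, against 17.3% of all genes. The E9.5 minus E8.5 difference of the genotype effects was -0.24 ± 0.09 for Cd34, with a limma adjusted p of 0.747. No gene of 13896 passed that test, while 5.72% had an unadjusted p under 0.05, Cd34 and Lyl1 among them. Between stages Cd34 differed by -0.17 ± 0.06 in the mutant (limma adjusted p = 0.0617), which passed with slide as a block (limma adjusted p = 0.0372), and by 0.07 ± 0.06 in the wild type. With arrays centred on their median in place of loess the mutant difference was 0.07. Stages were without overlap for 6 of 10 members in the mutant, against 38.5% of all genes, and for 3 of 10 in the wild type, against 37.5%.

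Other genes of the same pathway were read from lists of 30 blood transcription factors and partners, of which 25 were measured, and of 30 progenitor receptors and surface proteins, of which 24 were. Among the 25 transcription factors, 11 fell and 0 rose between stages in the mutant, where 10.6% of all genes fell, and 12 fell and 2 rose in the wild type, where 11% of all genes fell. The median change was -0.15 in the mutant and -0.21 in the wild type, against -0.01 for all genes in each. In the mutant the largest falls were those of Nfe2, by 0.86 ± 0.12, the repressor Gfi1b, by 0.71 ± 0.13, and Tal1, the partner of Lmo2 and Gata1, by 0.69 ± 0.12. The corepressor Cbfa2t3 fell by 0.60 ± 0.08, and Sox7 and Sox17 fell by 0.44 ± 0.06 and 0.40 ± 0.08. In the wild type Tal1 fell by 0.72 ± 0.12, Gfi1b by 0.59 ± 0.13 and Lmo2 by 0.50 ± 0.06, followed by Cbfa2t3, Myc and Nfe2 at 0.47, 0.42 and 0.41. Some of these genes are also transcribed in erythroid cells, in whose list of 20 markers 6 fell and 1 rose in the mutant (median -0.10), and 6 fell and 2 rose in the wild type (median 0.06). Klf1, Gata1 and Epor were among those that fell in each genotype. They do not stand for the whole erythroid list. The stage change lay above 0 for 12 of its 20 markers among wild-type yolk sacs, and for 6 of 20 among mutant ones. With median centring 3 of the 25 transcription factors passed in each genotype.

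At E8.5, Sox17 and Sox7, which act in haemogenic endothelium, were the 2 of 25 transcription factors that passed between genotypes, where 1.44% of all genes did, higher in the mutant by 0.39 ± 0.08 and 0.28 ± 0.06 (limma adjusted p = 0.0311 and 0.0270). Sox17 is also on the list of visceral endoderm markers, and whole yolk sac RNA does not tell which cells held either transcript. Neither call stood on the processed signals or with median centring, where 0 of the 25 passed. At E9.5 none passed. Among the 24 receptors and surface proteins 1 passed as higher and 1 as lower in the mutant at E8.5. Cd9, a tetraspanin, was lower by 0.37 ± 0.08 in the mutant than in the wild type at E8.5 (limma adjusted p = 0.0474). Between stages 4 of 24 receptors rose and 0 fell in the mutant, with Cd9 at 0.84 ± 0.08 and the endothelial receptor Robo4 at 0.53 ± 0.07 the largest. Wild-type yolk sacs had 5 that rose and 1 that fell, with Cd9 at 0.75 ± 0.08 and Robo4 at 0.52 ± 0.07 the largest rises and Tek, the angiopoietin receptor, falling by 0.22 ± 0.07. These counts lie near the 21.6% of all genes that passed in the mutant and the 23.8% in the wild type. The E8.5 call for Cd9 was absent with median centring.

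**Figure D5:**
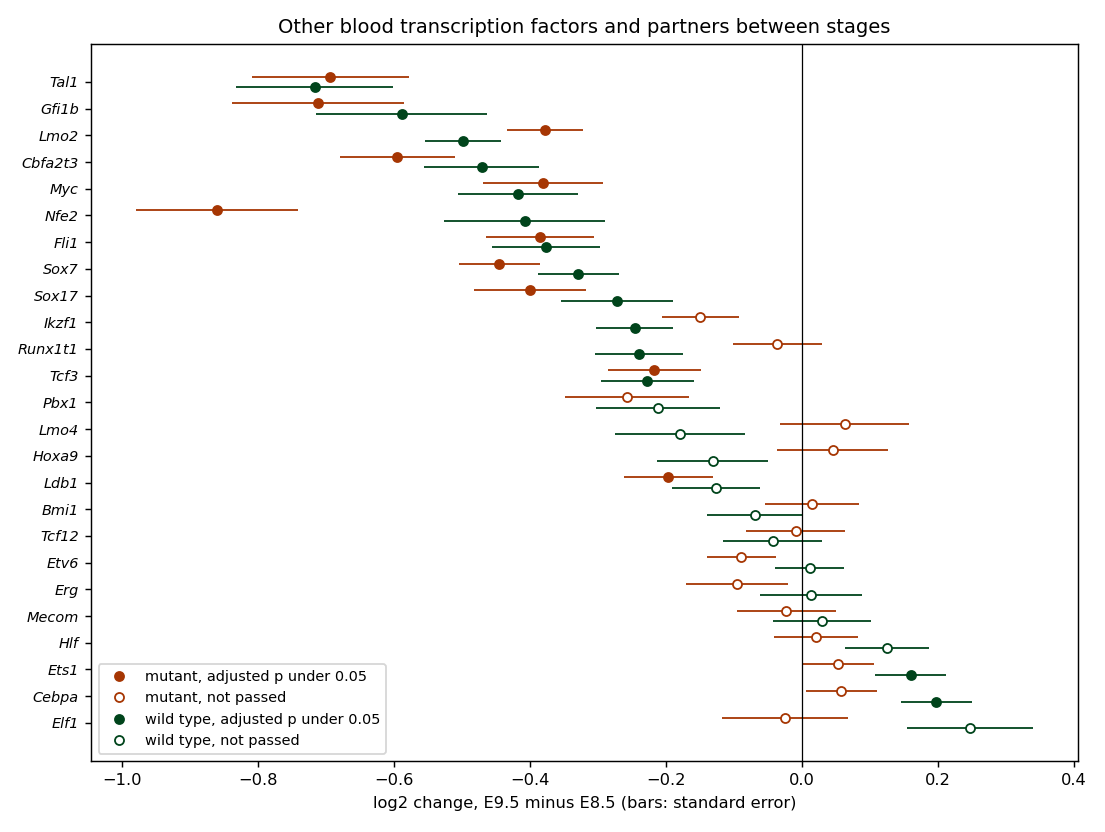
Log2 change, E9.5 minus E8.5, of the 25 measured blood transcription factors and partners outside the 10 genes, in the mutant (brown) and the wild type (green), with standard errors. Filled points passed an adjusted p of 0.05: 11 in the mutant, all lower, and 14 in the wild type, 12 of them lower.

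The share of rises and falls over all genes depended on the scaling. With loess, 1522 genes rose and 1476 fell between stages in the mutant, and 1783 rose and 1525 fell in the wild type. With median centring these counts were 1678 and 78 in the mutant and 1381 and 77 in the wild type, while the median of all genes moved to 0.14 and 0.11. Relative to that median, Lyl1 differed by -0.75 in the mutant and -0.38 in the wild type, Cd24a by -1.20 and -0.89, and Myb by -0.25 and -0.13.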

How the data were processed

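The sources used here are the deposited per-array scanner files and the deposited values of all 12 arrays together. Per the file headers, Agilent Feature Extraction 9.5.1.1 measured a mean and a local background intensity per spot in each channel, without normalization, and also gave processed intensity values and a log10 ratio of Cy5 over Cy3. Per the labels' protocols, 500 ng of RNA was amplified with a low-input kit and labelled. The authors' deposited value table holds log2 ratios, whose scale, direction and centring on each probe were set against the scanner files (lowest correlation over arrays 0.999723, 19007 gene probes). Its filter, and the genome build of the probes' coordinates, are not given in the sources used here.

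In R 4.3.3 with limma 3.58.1 and data.table (version 1.17.8), background was corrected by normexp with an offset of 50, log2 ratios were normalized by loess within each array, outlier spots and 6 spots more than 20 units below local background were set to missing, and repeated spots were averaged. Of the 41174 probes, 20065 were kept, those well above background in Cy5 on all 3 arrays of at least 1 group. The probe with the highest mean intensity stood for its gene, which left 13896 genes. Probes were named by accession (23374), current symbol (6733) or older symbol (2919) through RefSeq names. Limma was fitted to 4 group means over all 12 arrays (8 residual degrees of freedom), with Benjamini-Hochberg adjustment over all genes and a threshold of 0.05. Errors are standard errors of the fit. The code was tested on simulated data.

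Every one of the 10 genes is named. Of the other 2 blood lists, genes that passed are named, at most the 6 with the largest change per comparison, apart from 1 result that is not reported here, and each member that passed is given its 3 nearest genes. The members and all lists were chosen with earlier results of these data known. Replicate number equals slide, so the numbers pair arrays of a shared slide. Same-numbered arrays deviated together with correlations of 0.08 to 0.38 across genes. Precision is limited by the number of arrays. The E8.5 genotype difference had a median standard error of 0.0674. Alternatives were the processed signals, median centring, an offset of 16, other filters on dim probes, the mean of kept probes, slide as a replicate block, only the arrays compared, array weights, the deposited values and arrays left out.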

Additional observations from a re-analysis of the deposited data

Results flagged for a closer look

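Cd34, the surface sialomucin of progenitors and endothelium, differed between genotypes in opposite directions at the 2 stages on every slide with loess normalization. Mutant minus wild type was -0.00225, -0.08 and -0.15 at E9.5 on slides 1, 2 and 3, against 0.18, 0.18 and 0.14 at E8.5, so the E9.5 value on slide 1 was close to 0. The E9.5 minus E8.5 difference of these effects was -0.24 ± 0.09 (unadjusted p = 0.0150 from limma). It did not pass over all genes (limma adjusted p = 0.747), and it stayed between -0.31 and -0.16 under the alternatives run, with adjusted p of 0.463 or more. On the processed signals the slide 1 values at E9.5 were -2.20 in the mutant and -2.25 in the wild type, so the sign turned there. With median centring the E8.5 genotype difference was 0.03.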

How the results depend on the processing

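Between genotypes, 0 of 10 members passed at E9.5 and 0 in the difference of genotype effects under every alternative run. At E8.5 the count was 0, and 1 (Lyl1) with array weights, and 0 to 1 when a replicate was left out. Between stages in the mutant the count of 3 became 1 with median centring, 5 with only the arrays compared and 6 without both wild-type arrays high in neighbouring tissue, E9.5 replicate 3 and E8.5 replicate 2 (an alternative chosen after seeing the data), and ranged from 2 to 5 when a replicate was left out. In the wild type the count of 2 became 1 with median centring and 1 without the 3 arrays high in Prl4a1, and ranged from 2 to 3 when a replicate was left out. The Gata2 stage difference in the wild type, 0.03, became -0.31 without the 2 wild-type arrays. The causes of these changes were not tested.

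With slide as a replicate block, 4 members passed between stages in the mutant and 3 in the wild type, Cd34 and Hhex being added, 0 passed between genotypes, and the receptor list's wild-type count was 11 against 6. Over all genes, the E8.5 genotype count of 200 was 392 with array weights, 123 with only the arrays compared, 10 with median centring and 86 without the 3 arrays, and the E9.5 count of 277 was 173 with processed signals, 181 with the deposited table, 26 with median centring and 124 without the 3 arrays. In the mutant stage comparison, 2998 became 1756 with median centring and 1347 without the 3 arrays, and in the wild type 3308 became 1458 with median centring. Between E8.5 genotypes the 2 transcription factors that passed were 4 with array weights or the slide block, and 0 with processed signals, the deposited table, median centring, or without the 3 arrays. Between stages the 4 receptors that passed in the mutant were 7 with processed signals and 8 with the deposited table, the 6 in the wild type were 10 with array weights, and the 11 factors in the mutant and 14 in the wild type were 3 each with median centring. Runx1, Myb, Kit and Meis1 are read near background, so small changes in them are not measurable here, and their ratios on the offset scale are compressed.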
